A study of Mus musculus with 13 samples.

Results

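The 9 genes Mbp, Mobp, Mag, Mal, Mog, Cnp, Ugt8a, Car2 and Gjb1, which oligodendrocytes use to build and maintain myelin, were followed across 13 Affymetrix MG-U74Av2 arrays of mouse brain hemispheres. All probe sets that the platform annotation gives to 1 of these genes alone were taken, 14 of the 12422 gene probe sets on the array. There were 3 arrays of R6/2 mice given the triple treatment, 4 of untreated R6/2 mice, 3 of wild type mice given the triple treatment and 3 of untreated wild type mice. R6/2 mice model Huntington's disease: all their cells carry a transgene for a short N-terminal piece of human huntingtin with a long CAG repeat. The triple treatment was tacrine, a cholinesterase inhibitor, at 2.7 mg/kg per day from 5 weeks of age, moclobemide, an inhibitor of monoamine oxidase A, at 10 mg/kg per day, and creatine at 1% in wet mash. The descriptions name the drugs for every sample, so the titles alone decided which arrays were treated. A harvest age of 8 weeks stands with untreated wild type array 2 only. Sex is not labelled, and nothing says that the arrays came from separate mice, so p-values measure the spread between these samples, which may be technical.

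Myelin is the stacked membrane that oligodendrocytes wrap around axons in the central nervous system. Mbp, the myelin basic protein, and Mobp hold the inner faces of that membrane together. Mag faces the axon, Mog lies on the outermost lamella, and Mal is a membrane protein of lipid rafts. Ugt8a makes galactosylceramide, a main lipid of myelin, Cnp is an enzyme of the non-compact parts of the sheath, Car2 is a carbonic anhydrase abundant in oligodendrocytes, and Gjb1 encodes the gap junction protein connexin 32. In a whole hemisphere, fewer oligodendrocytes and less of these RNAs per cell cannot be told apart.

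Values are signals on a linear scale that the authors scaled to a trimmed mean of about 100 on every array, and a difference below is R6/2 minus wild type on the log2 scale unless stated. The median signal of an array was 39.6 to 45.1. Untreated R6/2 arrays 2 and 3 stood apart from the rest on the first principal component (33.9% of the variance), with scores of 25.4 and 45.8 against 4.09 or less on the other 11. By median rank correlation with all other arrays only array 3 stood apart, at 0.948. Array 2 was at 0.962, within the 0.961 to 0.971 of the other 11. Most results that rest on arrays 2 and 3 are given with and without them. The description of treated R6/2 array 1 carries the lot number of untreated R6/2 array 4. The rank correlation of these arrays was 0.968, within the range of all pairs (0.935 to 0.979), which cannot decide whether the title or the lot number is right. Of the 14 probe sets 13, from 8 genes, passed the filter on dim values (a mean log2 signal at or above that of 24.9). The Cnp probe set did not: it read 4.2, 10 and 5.1 in treated R6/2, 2.8, 8.1, 3.5 and 7.1 in untreated R6/2, 4.2, 4.7 and 5.8 in treated wild type, and 2, 3 and 6.7 in untreated wild type mice. These arrays therefore give no usable measure of Cnp.

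In untreated mice, myelin genes were lower in R6/2 brain. Of the 13 probe sets 8 fell and none rose (limma, Benjamini-Hochberg adjusted over 7453 probe sets at 0.05), against 6.41% of all probe sets that fell and 5.49% that rose. An unadjusted p under 0.05 was reached by 11 of 13, against 30.2% of all. Among these 11, Mag on 161846_r_at was higher in R6/2 mice (0.64). The 8 that fell at an adjusted p under 0.05 belonged to 5 of the 8 genes. They were all 4 probe sets of Mobp and 1 each of Ugt8a, Mbp, Mag and Gjb1. The median difference of the 13 was -0.73, and that of all probe sets was 0.04. No overlap between genotypes, with R6/2 below wild type, was seen for 10 of 13 against 12.3% of all, and R6/2 above wild type for 0 against 13.9%. With untreated R6/2 arrays 2 and 3 left out, 6 of 13 fell, 5 of them among the 8, and 2.24% of all probe sets then passed in either direction. With any 1 of the 3 untreated wild type arrays left out, Ugt8a, Mbp, Mag and Gjb1 no longer passed, while Mobp on 99046_at, 99047_at and 99048_g_at did. Mobp on 100536_at lost its call without untreated R6/2 array 2 or untreated wild type array 2 or 3. Gjb1 also lost its call without untreated R6/2 array 3, and Mbp on 96311_at without treated R6/2 array 3, untreated R6/2 array 2 or treated wild type array 2.

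**Figure D1:**
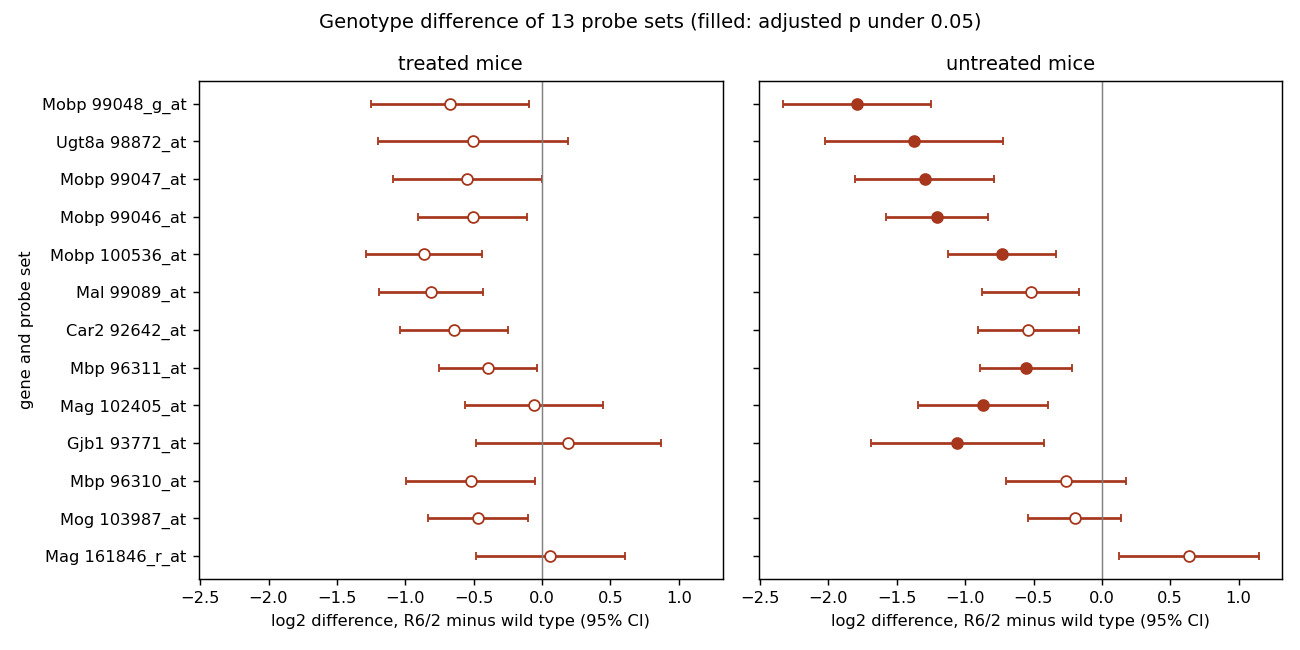
Log2 difference between R6/2 and wild type mice for the 13 probe sets that passed the filter, with 95% confidence intervals, in treated mice (left panel) and untreated mice (right panel). Filled points passed an adjusted p of 0.05: 0 of 13 in treated mice, where 11 estimates were below 0, and 8 of 13 in untreated mice.

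Mobp, whose protein compacts central myelin, had the smallest p-values. On probe set 99046_at it read 192.4, 165.8, 110.1 and 166 in untreated R6/2 mice, against 404.2, 366.3 and 309 in untreated wild type mice. All 4 R6/2 arrays lay below all 3 wild type arrays, a difference of -1.20 ± 0.17 (SE, limma adjusted p = 0.00142). On 99048_g_at it read 187.9, 140, 120.8 and 247.4 in untreated R6/2 mice, against 541.2, 618.4 and 583 in untreated wild type mice. This was the largest difference of the 13, at -1.79 ± 0.25 (SE, limma adjusted p = 0.00129). On 99047_at it read 492, 408.8, 270.5 and 631 in untreated R6/2 mice, against 889.5, 1211.9 and 1093.9 in untreated wild type mice, again with no overlap (-1.30 ± 0.24, SE, limma adjusted p = 0.00645). On the fourth, 100536_at, it read 527.8, 630.6, 762.2 and 537 in untreated R6/2 mice, against 811.5, 1196.4 and 1054.8 in untreated wild type mice, at -0.73 ± 0.19 (SE, limma adjusted p = 0.0245). Untreated R6/2 array 3 was the lowest of the 4 on 3 of these probe sets and the highest on 100536_at. Leaving out untreated R6/2 arrays 2 and 3, all 4 probe sets of Mobp passed, at -1.001, -1.43, -0.92 and -0.92 in the order given.

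The 250 bases before the annotated start of Mobp, Mag and Ugt8a, genes that fell together in untreated mice, are shown 5′ to 3′ on the strand of the gene, from RefSeq on GRCm38.p6. Mobp lies on the plus strand (chr9:120149492-120149741), and Mag (chr7:30914923-30915172, its outermost start) and Ugt8a (chr3:125938653-125938902) on the minus strand. Capitals mark matches on either strand to ACAAAG or ACAATG, cores bound by SOX proteins such as Sox10, and to CTGGCAC or CTGGTAC, the motif of Myrf, both regulators of myelin genes in oligodendrocytes.
Mobp: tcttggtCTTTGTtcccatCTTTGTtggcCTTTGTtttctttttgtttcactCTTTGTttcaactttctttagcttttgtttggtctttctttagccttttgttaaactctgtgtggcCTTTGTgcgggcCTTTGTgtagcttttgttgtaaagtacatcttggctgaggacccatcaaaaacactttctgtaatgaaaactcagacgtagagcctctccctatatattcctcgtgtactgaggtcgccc
Mag: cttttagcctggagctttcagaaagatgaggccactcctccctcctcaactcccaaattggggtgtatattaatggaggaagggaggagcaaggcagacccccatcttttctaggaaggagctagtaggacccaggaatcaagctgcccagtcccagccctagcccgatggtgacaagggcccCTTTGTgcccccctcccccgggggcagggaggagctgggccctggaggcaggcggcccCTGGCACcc
Ugt8a: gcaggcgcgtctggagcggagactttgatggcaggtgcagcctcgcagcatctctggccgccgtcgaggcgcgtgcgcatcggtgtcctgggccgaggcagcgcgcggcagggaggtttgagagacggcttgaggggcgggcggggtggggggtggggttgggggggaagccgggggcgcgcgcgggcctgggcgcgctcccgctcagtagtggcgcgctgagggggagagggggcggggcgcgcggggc
The Mobp stretch held 6 matches to the SOX cores, all as CTTTGT on the strand shown, and none to the Myrf motif. At least 1 SOX core stood in 25.2% of all 32851 promoters of this length. A count of 6 or more, a cutoff equal to the count of Mobp itself, was reached by 1 of them, this one. The Mag stretch held 1 SOX core, 67 bases before the start, and 1 Myrf motif, which stood in 5.93% of all promoters, 9 bases before it. The Ugt8a stretch held neither. Promoters of 7 of the 9 genes were searched. Those of Mbp and Car2 were not among them, so nothing can be said about motifs in these genes. A match is a string of letters and was not tested as a binding site.

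Ugt8a, the enzyme of galactosylceramide synthesis, read 32, 73.7, 29.2 and 57.5 in untreated R6/2 mice, against 130.1, 103 and 115.2 in untreated wild type mice. Every R6/2 array lay below every wild type array, at -1.37 ± 0.30 (SE, limma adjusted p = 0.0152). Leaving out arrays 2 and 3, it was at -1.43 (limma adjusted p = 0.0291).

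Mbp was measured by a bright and a dim probe set. The bright one, 96311_at, read 1562, 1472.2, 932.6 and 1473.8 in untreated R6/2 mice, against 1951, 2064.4 and 1857.2 in untreated wild type mice. The groups did not overlap and the difference was -0.55 ± 0.16 (SE, limma adjusted p = 0.0382). Untreated R6/2 array 3 was far below the other 3, and without arrays 2 and 3 the difference was -0.37 and did not pass (limma adjusted p = 0.112). The dim one, 96310_at, read 151.2, 128.3, 135.5 and 116.9 in untreated R6/2 mice, against 210.4, 115.7 and 164.2 in untreated wild type mice, which overlapped (-0.26 ± 0.21, SE, limma adjusted p = 0.413).

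Mag, the adhesion protein that faces the axon, read 212.6, 192.8, 109.8 and 211.7 on 102405_at in untreated R6/2 mice, against 317.8, 362 and 287.9 in untreated wild type mice. The groups did not overlap, at -0.87 ± 0.22 (SE, limma adjusted p = 0.0247), with array 3 again the lowest. With arrays 2 and 3 left out it was at -0.60 and did not pass (limma adjusted p = 0.114). Gjb1 read 19.6, 34.9, 18.3 and 18.2 in untreated R6/2 mice, against 47.9, 47 and 41.8 in untreated wild type mice. Here untreated R6/2 array 2 was the high one, and the difference was -1.06 ± 0.30 (SE, limma adjusted p = 0.0365), or -1.27 without arrays 2 and 3 (limma adjusted p = 0.06).

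Car2 and Mal lay just outside the threshold in untreated mice. Car2 read 394.9, 657.4, 549 and 390.8 in untreated R6/2 mice, against 660.2, 761.7 and 696.8 in untreated wild type mice, with array 2 close to the lowest wild type value (-0.54 ± 0.17, SE, limma adjusted p = 0.0559). Without arrays 2 and 3 Car2 passed, at -0.84 (limma adjusted p = 0.00648). Mal read 158.2, 254.9, 214.5 and 242.5 in untreated R6/2 mice, against 302.8, 332.7 and 287.3 in untreated wild type mice, with no overlap (-0.52 ± 0.17, SE, limma adjusted p = 0.0555). Mog, the glycoprotein of the outermost lamella, overlapped: it read 98.8, 121.7, 78.3 and 101.7 in untreated R6/2 mice, against 138.2, 104.2 and 101.9 in untreated wild type mice (-0.20 ± 0.16, SE, limma adjusted p = 0.422).

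**Figure D2:**
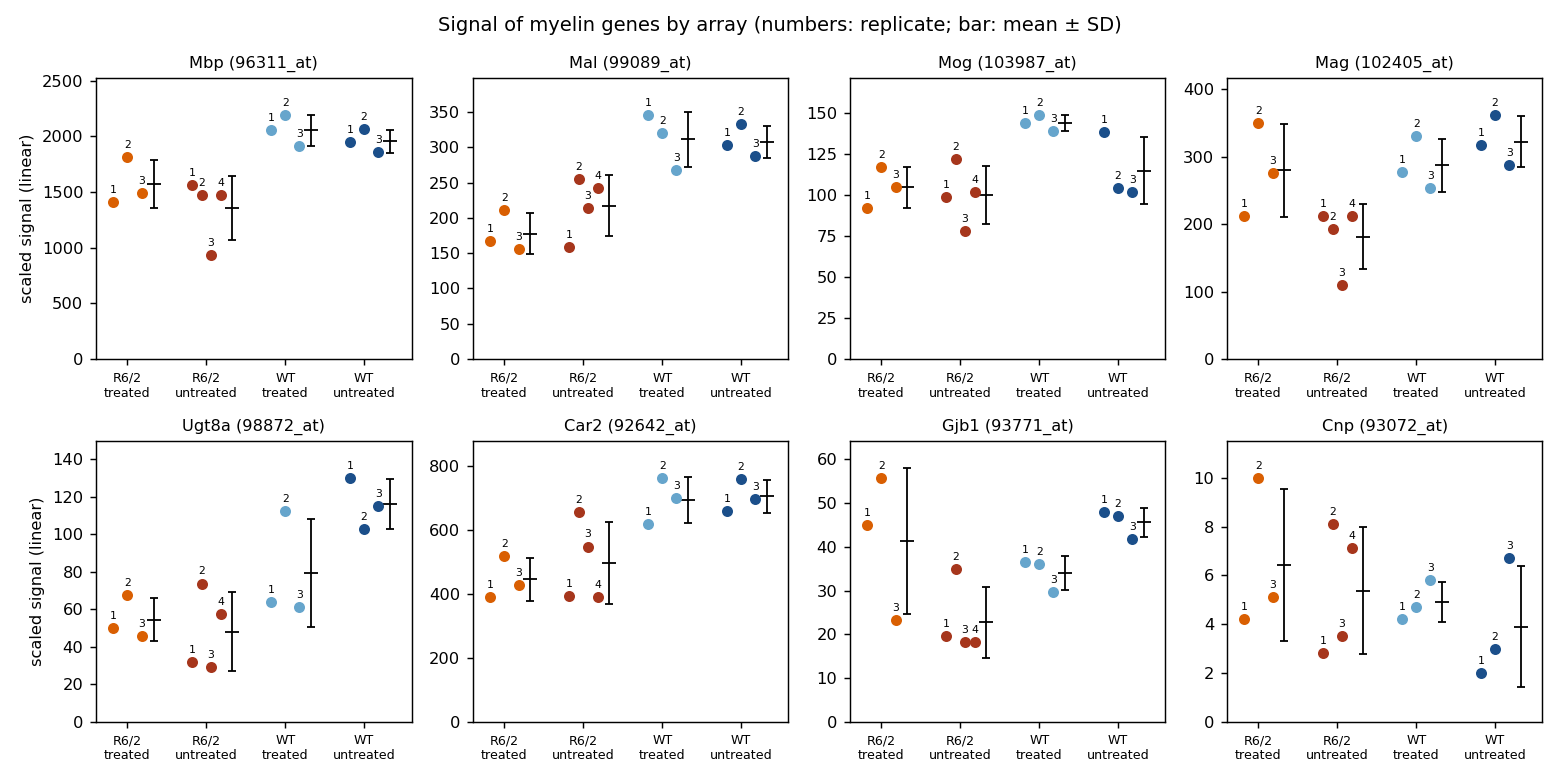
Scaled signal on a linear axis from 0 for 1 probe set each of 8 genes, by group, with 1 point per array, its replicate number above it and the mean ± SD beside each group. Mbp and Mal lie lower on every R6/2 array than on every wild type array. For Car2 the R6/2 means are the lower ones, but untreated R6/2 array 2 (657.4) lies above treated wild type array 1 (620.7). Mag and Gjb1 have their lowest mean in untreated R6/2 mice, and Cnp stays at or below 10 on every array.

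In treated mice no myelin gene passed the test, although most estimates were below 0. Of the 13 probe sets 0 passed, against 0.711% of all probe sets that fell and 0.0805% that rose, while 9 of 13 had an unadjusted p under 0.05, against 9.19% of all. The estimates were below 0 for 11 of 13, against 43.9% of all, and their median was -0.51. R6/2 arrays lay below wild type arrays without overlap for 6 of 13, against 8.17% of all, and above them for 0, against 8.63%.

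Mal came closest to the threshold. It read 167.3, 210.9 and 155.2 in treated R6/2 mice, against 345.7, 319.6 and 268.3 in treated wild type mice, with no overlap (-0.81 ± 0.18, SE, limma adjusted p = 0.0503). Mobp on 100536_at read 474.5, 804.9 and 509.1 in treated R6/2 mice, against 1050.9, 1078 and 1037.4 in treated wild type mice, also with no overlap (-0.87 ± 0.20, SE, limma adjusted p = 0.0577). Car2 read 389.6, 518.6 and 429 in treated R6/2 mice, against 620.7, 764.5 and 699.9 in treated wild type mice (-0.65 ± 0.18, SE, limma adjusted p = 0.161). On all 3 of these probe sets treated R6/2 array 2 was the highest of its group. The calls were near the edge: without untreated R6/2 arrays 2 and 3, which are in neither group compared but enter the estimate of the spread and the filter, Mal, Car2 and Mobp on 100536_at passed (limma adjusted p = 0.0285, 0.014 and 0.0304), when 1.6% of all probe sets passed in either direction.

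Mbp on 96311_at read 1408.4, 1812.7 and 1495.6 in treated R6/2 mice, against 2057.3, 2192.9 and 1917.3 in treated wild type mice. There was no overlap, but the difference of -0.39 ± 0.17 did not pass (SE, limma adjusted p = 0.487). On 96310_at Mbp read 159.2, 131.1 and 137.5 in treated R6/2 mice, against 265.8, 211.9 and 150.9 in treated wild type mice, with overlap by 1 array (-0.52 ± 0.22, SE, limma adjusted p = 0.474). Mog read 91.8, 116.8 and 105.1 in treated R6/2 mice, against 143.9, 148.7 and 138.7 in treated wild type mice, without overlap (-0.47 ± 0.17, SE, limma adjusted p = 0.372). The other 3 probe sets of Mobp were at -0.51, -0.55 and -0.67 (99046_at, 99047_at, 99048_g_at) and Ugt8a was at -0.51.

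Mag and Gjb1 overlapped between genotypes under treatment. Mag on 102405_at read 212.2, 350.7 and 276.3 in treated R6/2 mice, against 277.5, 331.1 and 253.2 in treated wild type mice, and the difference of -0.06 had a 95% interval of -0.57 to 0.45. Gjb1 read 45, 55.8 and 23.2 in treated R6/2 mice, against 36.5, 36.1 and 29.6 in treated wild type mice, and its difference of 0.19 had an interval of -0.48 to 0.87. For both genes the treated R6/2 arrays spread beyond the range of the treated wild type arrays on either side.

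Whether treatment altered the genotype difference was tested as an interaction, the genotype difference in treated minus that in untreated mice. No probe set of the 13 passed in limma, nor did any of the 7453 (0%), and 5 of 13 had an unadjusted p under 0.05, against 13.5% of all. These were Mobp on 99048_g_at (1.12 ± 0.37), 99046_at (0.70 ± 0.26) and 99047_at (0.75 ± 0.35), Gjb1 (1.25 ± 0.43) and Mag on 102405_at (0.81 ± 0.32), with limma adjusted p between 0.315 and 0.368. Leaving out untreated R6/2 arrays 2 and 3, these interactions were 0.75, 0.50, 0.38, 1.46 and 0.54.

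Within R6/2 mice, treatment gave no call in limma for any of the 13 or of all probe sets (0%). An unadjusted p under 0.05 was reached by 3 of 13, against 16.9% of all. They were Gjb1, at 0.83 for treated minus untreated, Mag on 102405_at, at 0.64, and Mobp on 99048_g_at, at 0.64 (limma adjusted p = 0.251, 0.251 and 0.257). For Mobp on 99048_g_at the treated R6/2 arrays read 265.4, 345.6 and 193.2 and the untreated R6/2 arrays 187.9, 140, 120.8 and 247.4, so the groups overlapped. With untreated R6/2 arrays 2 and 3 left out, the treatment differences of Gjb1, Mag and Mobp on these probe sets were 1.04, 0.37 and 0.27. The estimates for Mal and Car2 were below 0, at -0.28 and -0.13. The groups overlapped for all 13 probe sets, where 4.94% of all probe sets were higher and 5.65% lower in treated R6/2 mice without overlap.

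Within wild type mice, treatment again gave no call in limma for any of the 13 or of all probe sets (0%), and 1 of 13 had an unadjusted p under 0.05, against 10.3% of all. It was Mag on 161846_r_at, at 0.72 for treated minus untreated (limma adjusted p = 0.369), where the arrays overlapped. Treated arrays lay above untreated ones without overlap for 1 of 13, Mog, against 11.4% of all, and below for 2, Gjb1 and Mobp on 99046_at, against 10.4%. Mog read 143.9, 148.7 and 138.7 in treated wild type mice, against 138.2, 104.2 and 101.9 in untreated wild type mice, a difference of 0.34 (limma adjusted p = 0.509). Mobp on 99046_at read 284.5, 299.4 and 262.4 in treated wild type mice, against 404.2, 366.3 and 309 in untreated wild type mice, a difference of -0.34 (limma adjusted p = 0.538). Ugt8a read 64, 112.5 and 61.2 in treated wild type mice, against 130.1, 103 and 115.2 in untreated wild type mice, an overlapping difference of -0.60 (limma adjusted p = 0.536). Both treatment comparisons share arrays with the genotype comparisons, so none of them is independent of the others. Averaged over genotype, treatment gave no call in limma among the 13 or all probe sets (0%), with 1 of 13 at an unadjusted p under 0.05, against 12.6% of all.

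Averaged over both arms, 8 of the 13 probe sets fell in R6/2 mice and none rose, against 4.04% of all probe sets that fell and 2.58% that rose. An unadjusted p under 0.05 was reached by 11 of 13, against 24% of all. All 4 probe sets of Mobp were among them, from -0.80 ± 0.14 on 100536_at to -1.23 ± 0.19 on 99048_g_at, with Ugt8a at -0.94 ± 0.22, Mal at -0.67 ± 0.12, Car2 at -0.59 ± 0.13 and Mbp on 96311_at at -0.47 ± 0.11 (SE, limma adjusted p between 0.0011 and 0.0243). The remaining 5 did not pass. They were Mag on both probe sets (-0.46 and 0.35), Gjb1 (-0.43), Mog (-0.33) and Mbp on 96310_at (-0.39). The same 8 probe sets passed with untreated R6/2 arrays 2 and 3 left out. Ugt8a lost its call when treated R6/2 array 1 or 3, treated wild type array 2 or untreated wild type array 1 was left out (limma adjusted p = 0.0537 to 0.0592), and Mbp on 96311_at without any of these or untreated wild type array 2 (0.0517 to 0.0699). Neither passed with no filter on dim values (limma adjusted p = 0.0708 and 0.0702).

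Probe sets of the same gene did not always read alike. The 2 probe sets of Mag gave estimates of opposite sign in untreated mice: 161846_r_at read 70.2, 47.4, 58.1 and 54.4 in untreated R6/2 mice, against 25.1, 38 and 51.5 in untreated wild type mice, a difference of 0.64 ± 0.24 that did not pass (SE, limma adjusted p = 0.0902). This dim probe set correlated with the other at r = -0.35 over the 13 arrays. The log2 ratio of 102405_at to 161846_r_at was 0.92 to 2.02 in untreated R6/2 mice, against 2.48 to 3.66 in untreated wild type mice, with no overlap. It was 1.54 to 2.74 in treated R6/2 mice, against 1.78 to 2.54 in treated wild type mice. Averaged over both arms the genotype difference of this ratio was -0.81 (two-sided exact permutation p = 0.04 over 700 reassignments of genotype within treatment arms, 0.24 adjusted over the 8 pairs of probe sets tested). Without untreated R6/2 arrays 2 and 3 this difference was -0.74 (exact permutation p = 0.1, adjusted 0.4).

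Among the 4 probe sets of Mobp, the ratio of 100536_at to 99048_g_at differed by -0.19 between R6/2 and wild type in treated mice and by 1.06 in untreated mice. Averaged, it was 0.43 (exact permutation p = 0.191, adjusted 0.383). With untreated R6/2 arrays 2 and 3 left out, it was 0.51 in untreated mice and 0.16 averaged. The ratio of 99047_at to 99048_g_at, which the annotation ties to the same sequence record, differed by 0.31 (exact permutation p = 0.0643, adjusted 0.24), and that of 99046_at to 99048_g_at by 0.38 (exact permutation p = 0.09, adjusted 0.24). Without untreated R6/2 arrays 2 and 3 these differences were 0.32 (exact permutation p = 0.08, adjusted 0.4) and 0.30 (exact permutation p = 0.205, adjusted 0.53). None of the 8 pairs passed, and the smallest p that the reassignments allow is 0.00143. The 2 probe sets of Mbp differed by 0.08 (exact permutation p = 0.706, adjusted 0.807).

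**Figure D3:**
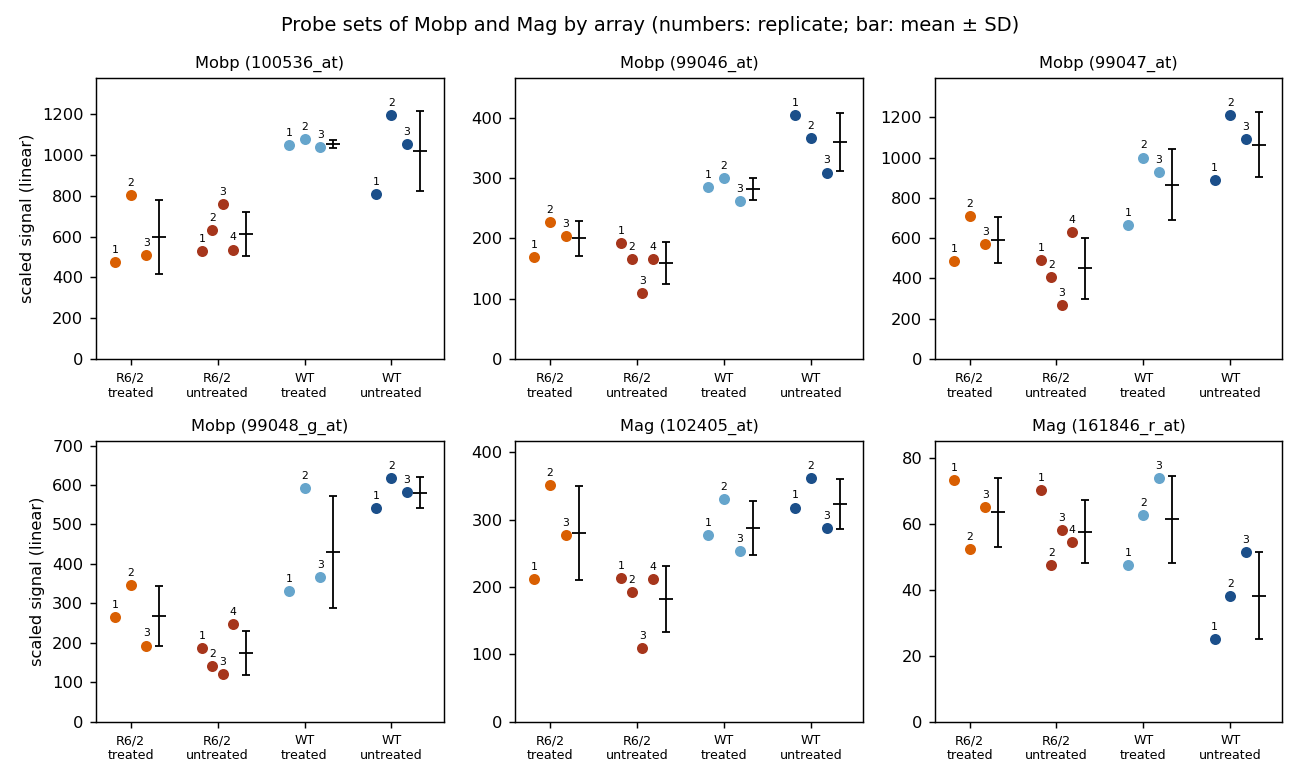
Scaled signal on a linear axis from 0 for the 4 probe sets of Mobp and the 2 of Mag, by group, with 1 point per array, its replicate number above it and the mean ± SD beside each group. All 4 Mobp probe sets are lower in untreated R6/2 than in untreated wild type mice, with array 3 highest on 100536_at and lowest on the other 3, while the 2 Mag probe sets run in opposite directions in untreated mice.

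Over the 13 arrays the 66 pairs among the other 12 probe sets correlated at r = 0.23 to 0.95 (median 0.62), with the lowest values for Mbp on 96310_at, and the 12 pairs with the dim Mag probe set at -0.63 to -0.19. Each gene taken by its brightest probe set, the mean log2 level of the 8 genes, relative to its average over all arrays, was -0.31, 0.15 and -0.34 in treated R6/2 mice and -0.49, -0.02, -0.60 and -0.33 in untreated R6/2 mice. It was 0.25, 0.43 and 0.15 in treated wild type mice and 0.38, 0.43 and 0.30 in untreated wild type mice. Treated R6/2 array 2 was the 1 R6/2 array at the level of a wild type array, at 0.153 against 0.147 on treated wild type array 3. The genes outside the list whose level over the 13 arrays was most like this mean, by Pearson correlation among 6727 probe sets, were Trak1 (r = 0.93), Rpsa (0.92), Egr1 (0.92), Kctd17 (0.91), Cox6a2 (0.91), Brk1 (0.91), Efhd1 (0.90) and Sema4a (0.89). Over the 11 arrays without untreated R6/2 arrays 2 and 3 these values were 0.91, 0.92, 0.95, 0.92, 0.92, 0.89, 0.94 and 0.86. All these points share the arrays and the genotype split, and the median correlation was -0.06. Trak1 (-0.47), Rpsa (-0.76), Egr1 (-1.02), Kctd17 (-0.81), Cox6a2 (-1.52), Brk1 (-0.42), Efhd1 (-0.80) and Sema4a (-0.87) all fell in untreated R6/2 mice. They were picked for likeness to a mean that was itself mostly lower on R6/2 arrays, so this fall is no separate result.

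Other genes of mature oligodendrocytes and of their membrane gave few calls in untreated mice. Of 25 such genes that were measured, among 55 listed, 3 fell and 2 rose in untreated R6/2 mice, with a median difference of -0.22. Over all probe sets 6.41% fell and 5.49% rose, so both counts were near that share. Padi2, a peptidylarginine deiminase that modifies myelin basic protein, read 75.6 to 83.6 in untreated R6/2 mice, against 127.1 to 145.6 in untreated wild type mice (-0.81 ± 0.13, SE, limma adjusted p = 0.00301), and this call held without arrays 2 and 3 (-0.80). The ephrin gene Efnb3 (-0.60) and Dbndd2 (-0.58) also fell, but not without those arrays (limma adjusted p = 0.0698 and 0.216). Anln, a cytoskeletal protein, rose by 0.55, and by 0.28 without them (limma adjusted p = 0.348). Gamt, a creatine synthesis enzyme, rose by 0.51 on its brightest probe set and fell on its other, at -0.66. Without those arrays 1 of the 25 fell and none rose, with a median of -0.20.

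Cldn11, the tight junction protein of myelin, was at -0.76 in treated mice (limma adjusted p = 0.153) and at -0.53 in untreated mice (limma adjusted p = 0.0899), with its other probe set at -0.28 in treated and -0.04 in untreated mice. It fell when both arms were averaged (-0.65 ± 0.15, SE, limma adjusted p = 0.0169), as did Qdpr, a pteridine reductase abundant in oligodendrocytes, Padi2 and Efnb3, while Anln rose. Thus 4 of 25 fell and 1 rose, against 4.04% of all probe sets that fell and 2.58% that rose. With arrays 2 and 3 left out, Cldn11 and Padi2 of these genes passed, when 5.69% of all probe sets passed in either direction. Myrf, the transcription factor whose motif was searched above, was at -0.36 in untreated mice (limma adjusted p = 0.0585). In treated mice none of the 25 passed, the median was -0.09, and after Cldn11 the smallest p-values were those of Qdpr (-0.49), Cryab (-0.41) and Pmp22 (-0.30).

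Genes of oligodendrocyte precursors gave 1 call. Of 7 measured among 16 listed, 1 fell in untreated R6/2 mice, against 6.41% of all probe sets. This was Bcan, the proteoglycan brevican, which astrocytes also make. It read 158.7 to 178.5 in untreated R6/2 mice, against 331 to 407.9 in untreated wild type mice (-1.12 ± 0.16, SE, limma adjusted p = 0.00129), and passed without arrays 2 and 3 (-1.08). The median of the 7 was -0.04, and -0.24 without arrays 2 and 3. Pdgfra, the growth factor receptor that defines these cells, was at -0.03, the transcription factor gene Sox10, shared with mature cells, at -0.34 (limma adjusted p = 0.166), Fyn at -0.10 and Ptprz1 at 0.16. In treated mice none of the 7 passed, and Vcan was at -0.63, Ptprz1 at -0.66, Bcan at -0.44 and Nkx2-2 at 0.33.

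Of 27 measured genes of fatty acid, sphingolipid and sterol metabolism that supply myelin lipids, among 44 listed, 4 fell in untreated R6/2 mice. None rose, and the median was -0.17. Over all probe sets 6.41% fell and 5.49% rose. The 4 were the fatty acid desaturase Fads1 (-0.57), the sterol synthesis enzymes Dhcr7 (-0.64) and Mvd (-1.57) and arylsulfatase A, Arsa (-0.43), which breaks down the myelin lipid sulfatide. Without arrays 2 and 3 only Fads1 passed (-0.61), and the median of the 27 was -0.19. In treated mice none of the 27 passed (1 with arrays 2 and 3 left out, Idi1), the median was -0.26, and the smallest p-values were those of the sterol enzymes Fdps (-0.70), Idi1 (-0.75) and Sqle (-0.47) and of the desaturase Scd1 (-0.50). Of the genes of peripheral myelin 3 were measured among 8 listed. Egr2, which Schwann cells need for myelination and which neurons switch on with activity, fell in both arms (-1.998 in treated and -1.96 in untreated mice). Pmp22, which is also in the list of oligodendrocyte genes, was at -0.30 in treated and -0.22 in untreated mice, and the signalling protein gene Dhh at 0.02 and 0.34.

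Markers of other cells moved in untreated mice too. Over all probe sets 6.41% fell and 5.49% rose. Of 18 neuronal genes 6 fell (median -0.40), and of 14 astrocyte genes 5 fell (median -0.29), while none rose. With arrays 2 and 3 left out, 4 of the 18 and 1 of the 14 fell, with medians of -0.29 and -0.39. In that setting 2.24% of all probe sets passed in either direction. The summed signal of the neuronal genes was 16185 to 17800 in treated R6/2 mice, against 17092 to 18915 in treated wild type mice, and 15026 to 16996 in untreated R6/2 mice, against 19711 to 19792 in untreated wild type mice, with overlap in the treated arm. That of the astrocyte genes was 9869 to 12567 in treated R6/2 mice, against 12222 to 13818 in treated wild type mice, and 9851 to 11272 in untreated R6/2 mice, against 11841 to 13205 in untreated wild type mice. For the 8 myelin genes the sum was 2839 to 3938 in treated R6/2 mice, against 4406 to 4983 in treated wild type mice, and 2694 to 3438 in untreated R6/2 mice, against 4360 to 4971 in untreated wild type mice, with no overlap in either arm. The same held for the 25 other myelin and mature oligodendrocyte genes and for the 3 peripheral myelin genes. Such sums weigh bright genes most, and do not show that a whole list fell. The median difference of the 25 was -0.09 in treated and -0.22 in untreated mice. Among the 3, Egr2 averaged 31.5 in treated R6/2 against 125 in treated wild type mice. In untreated mice it averaged 27.35 against 105, while Dhh was not lower in either arm. The sum of the 25 was 4938 to 5473 in treated R6/2 mice, against 5550 to 6218 in treated wild type mice. It was 4517 to 5292 in untreated R6/2 mice, against 5598 to 5717 in untreated wild type mice. Among 10 microglial genes 1 rose, among 13 endothelial and mural genes 1 fell, among 3 blood genes 1 fell (median -1.02), and none of 5 genes of choroid plexus and ependyma passed. With arrays 2 and 3 left out, none of these microglial, endothelial and mural, or blood genes passed, and the median of the blood genes was -0.81. The part of these other cells in the fall of the myelin genes was not tested. In treated mice none of the neuronal, astrocyte, microglial or endothelial genes passed, with medians of -0.17, -0.20, 0.01 and 0.20 beside -0.51 for the 13 myelin probe sets. With arrays 2 and 3 left out, 1 astrocyte gene passed there, Sparcl1 (-0.51, limma adjusted p = 0.0364).

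**Figure D4:**
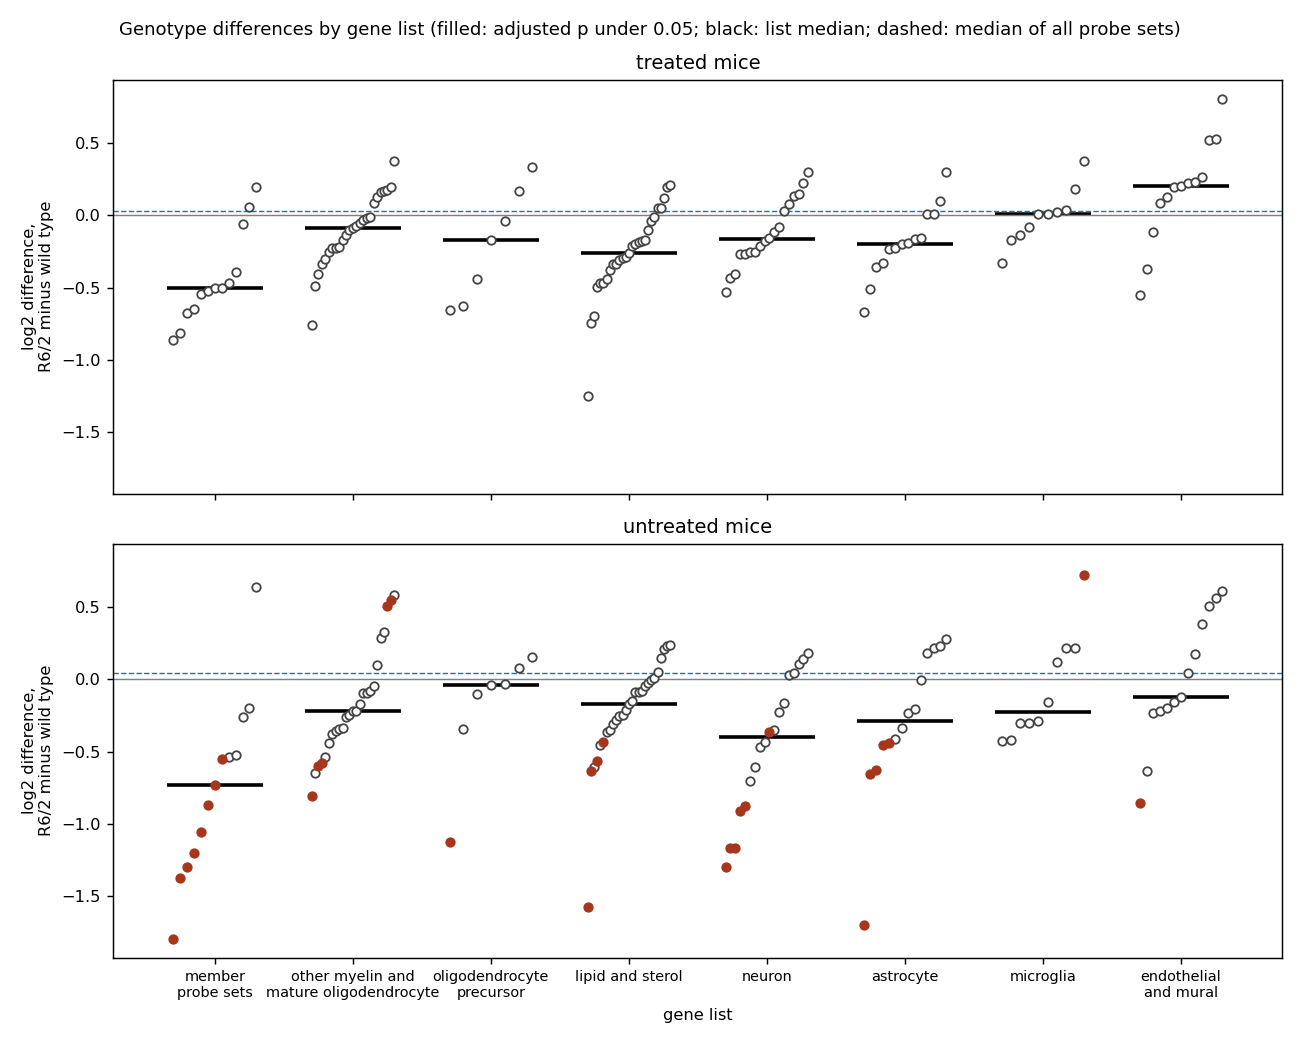
Log2 difference between R6/2 and wild type mice for each measured gene of 8 lists, in treated mice (upper panel) and untreated mice (lower panel), with list medians as black bars and the median of all 7453 probe sets as a dashed line. Filled points passed an adjusted p of 0.05. The median of the 13 myelin probe sets, of which 4 are of Mobp, is -0.51 in treated and -0.73 in untreated mice. With 1 probe set per gene, as in the other lists, it is -0.49 and -0.64, and the blood genes, not drawn, had -1.02 in untreated mice.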

How the data were processed

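Total RNA of brain hemispheres was measured on 13 one-colour arrays. Per the deposited table, the values are intensities on a linear scale that the authors had scaled. The mean after trimming 2% at each end was 100.047 to 100.128 per array. The software that made them is not given in the sources used here. Values under 3.1 (the 10th percentile) were set to 3.1 and log2 was taken. The 66 control probe sets were left out. Of 12422 gene probe sets, the 7453 with a mean log2 at or above the 40th percentile were kept, and a gene on several probe sets was represented in a gene list by its brightest. Group means were fitted with limma 3.58.1 (R 4.3.3) over all 13 arrays, with variances that followed intensity and Benjamini-Hochberg adjustment at 0.05 over the kept probe sets, for 7 comparisons. The code was tested on simulated data. Ratios between probe sets of a gene were tested by exact permutation of genotype within treatment arms. No depth exists for arrays, and their number limits the precision.

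The members, the gene lists and the tests were chosen with earlier results of these data known. Every probe set of the 9 genes is named. From the oligodendrocyte and lipid lists, genes that passed and the 4 with the smallest p are named, and the 8 most alike genes by correlation. Alternatives changed the floor, the filter, the normalization, the variance model, the array weights and the arrays used. Promoter sequences came from RefSeq, matched by symbol.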

Additional observations from a re-analysis of the deposited data

Results flagged for a closer look

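Within the untreated R6/2 group of 4 arrays, 3 of the 14 probe sets had 1 array apart from the other 3 by Dixon's gap criterion, which chance meets in about 1 of 20 groups. Untreated R6/2 array 3 read 109.8 for Mag on 102405_at, against 192.8 to 212.6 on the other 3. The same array read 932.6 for Mbp on 96311_at, against 1472.2 to 1562. Untreated R6/2 array 2 read 34.9 for Gjb1, against 18.2 to 19.6. These are the 2 arrays that stood apart on the first principal component over all probe sets. Without both, Mag was at -0.60, Mbp on 96311_at at -0.37 and Gjb1 at -1.27 in the genotype comparison of untreated mice, and none of the 3 passed (limma adjusted p = 0.114, 0.112 and 0.06).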

How the results depend on the processing

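No paired analysis was possible because the labels give no replicate numbers that the groups share. In untreated mice the count of member probe sets called was 8, when 11.9% of all probe sets passed in either direction. It was 10 with array weights (13.5% of all) and 6 without untreated R6/2 arrays 2 and 3 (2.24% of all). It was 3 with no filter, 4 with only the arrays compared, and 3 to 9 when 1 array was left out. Where no share of all probe sets stands beside a count in this paragraph, the count cannot be set against the whole array. It was 4, 3 and 3 without untreated wild type arrays 1, 2 and 3, and the probe sets of Mobp on 99046_at, 99047_at and 99048_g_at were called in each of these. In treated mice the count was 0, when 0.792% of all probe sets passed. It was 6 with array weights (2.79% of all) and 3 without untreated R6/2 arrays 2 and 3 (1.6% of all). It was 1 with a floor of 16, 2 with quantile normalization, 1 with only the arrays compared, and 0 to 2 when 1 array was left out. The averaged genotype count of 8, when 6.61% of all probe sets passed, ranged from 6 to 9 over all alternatives. With array weights it was 9 (12.5% of all). The counts of 0 for treatment in R6/2 mice, in wild type mice and averaged, and for the interaction, were 0 under each alternative run. Of 360 alternatives for the 16 called differences, 317 kept the call, 43 lost it and 0 changed sign. Those that changed sign were uncalled differences near 0. For treatment in R6/2 mice, Mog was at -0.042 with array weights, and without untreated R6/2 arrays 2 and 3 Mobp on 100536_at was at 0.12 and Car2 at 0.17. For treatment in wild type mice, Mbp on 96311_at was at -0.0044 with quantile normalization, Mal at -0.043 with median centring and Car2 at 0.022 with array weights. For the interaction, Mbp on 96311_at was at -0.048 with array weights and -0.027 without untreated R6/2 arrays 2 and 3, where Mobp on 100536_at was at 0.056 and Car2 at 0.20. Without those arrays the ratio differences were -0.0091 for Mbp and, for Mobp, -0.14 (100536_at to 99046_at), -0.16 (100536_at to 99047_at) and -0.018 (99046_at to 99047_at). Leaving out 1 array in turn, the genotype difference in treated mice ranged from -0.070 to 0.56 for Gjb1, -0.24 to 0.12 for Mag on 102405_at and -0.11 to 0.20 for Mag on 161846_r_at. Treatment in R6/2 mice ranged from -0.25 to 0.011 for Car2, -0.31 to 0.075 for Mobp on 100536_at and -0.039 to 0.17 for Mog, and in wild type mice from -0.097 to 0.053 for Car2, -0.068 to 0.11 for Mal and -0.090 to 0.19 for Mobp on 100536_at. The interaction ranged from -0.22 to 0.037 for Car2, -0.013 to 0.24 for Mbp on 96311_at and -0.37 to 0.022 for Mobp on 100536_at, and the ratio differences from -0.052 to 0.18 for Mbp and, for Mobp, -0.081 to 0.14 (100536_at to 99046_at) and -0.043 to 0.25 (100536_at to 99047_at). The cause of these changes was not tested.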
